A study of Mus musculus with 6 samples.

Results

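Cytosolic ribosomal protein genes encode the proteins that, together with ribosomal RNA, make up the large (60S) and small (40S) subunits of the ribosomes that translate nuclear mRNAs. They were taken as the protein-coding mouse genes in the count files whose symbol is Rpl or Rps followed by a digit, or Rpsa, Rplp0, Rplp1 or Rplp2, without the names ending in -ps and without the S6 kinase genes. Of 43629 genes in the files 86 were found this way, 52 of the large and 34 of the small subunit. The rule used no measured value. It also took Rps19bp1, which encodes a protein that binds S19 and is not a subunit of the ribosome, and it left out Fau and Rack1, among others, which encode ribosomal proteins under other names. The libraries were made from left ventricular RNA of 6 male F1 mice, aged 1 year, of the outbred CD-1 strain. For 3 hearts the dam was given vehicle (normal saline) and for 3 hearts caffeine at 20 mg/kg, by a daily intraperitoneal injection from embryonic day 6.5 to 9.5. One field of the sample labels ends the exposure at day 10.5. The dam of each sequenced heart is not given in the sources used here, so that hearts may share a litter and p-values measure the spread between these 6 libraries.

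Each cytosolic ribosome holds a single copy of nearly every one of these proteins, so the genes are usually expressed together, and their short mRNAs begin with a 5′ terminal oligopyrimidine tract through which mTOR signalling controls their translation. mRNA level and ribosomal protein output can therefore differ, and only the former was measured. The mouse genome also carries very many processed pseudogenes of these genes, intronless copies made from their mRNAs. A short read from such an mRNA may match several places in the genome.

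Total counts were between 7613011 and 10483101 per heart, and 3 counts, taken as the smallest amount that can be shown, were worth 0.286 to 0.394 CPM (counts scaled to a common library size with TMM factors). The 10 genes with the most counts held 17.1% to 20.0% of the counts in vehicle hearts and 22.6% to 25.7% in caffeine hearts. Markers of ventricular cardiomyocytes summed to between 57784 and 67011 CPM over the 6 hearts, while Myl7 and Sln, which define atrial muscle, were at or near 0. The 4 atrial markers summed to 53.3 to 182 CPM in vehicle hearts and 267 to 435 CPM in caffeine hearts, nearly all of it on Nppa, a natriuretic peptide gene that is also expressed by stressed ventricles (51.3, 90.2 and 180 CPM against 266, 370 and 433 CPM). The part of this difference in the ribosomal protein values was not tested. Fibroblast markers were at 760 to 916 CPM in vehicle hearts and 1000 to 1147 CPM in caffeine hearts, and macrophage markers at 171 to 271 and 206 to 403 CPM. In bulk tissue, fewer cells of a type and less RNA per cell cannot be told apart.

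How far a count can be assigned to a single one of these genes was examined first. The coding sequence of each gene was read in windows of 75 bases, the length of the reads, and each window was looked for in the annotated transcripts of all other mouse genes. Of the 86 genes, 25 had every coding window unchanged in another gene, 40 had over 50% of their windows shared, and 21 had 50% or less. In 5 genes no coding window was found elsewhere, among them Rps3, Rpl3l, Rpl39l and Rps19bp1. Stretches of 6 genes or pseudogenes are printed here because their counts are described below, all from GRCm38 and in the direction of the mRNA, with capitals only at bases that differ within a pair. The first pair, a stretch of Rps6 at chr4:86856785-86856859 (minus strand) and of its processed pseudogene Rps6-ps4 at chr2:75191742-75191816 (minus strand), is identical.
Rps6: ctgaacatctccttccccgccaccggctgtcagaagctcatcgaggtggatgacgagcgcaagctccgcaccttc
Rps6-ps4: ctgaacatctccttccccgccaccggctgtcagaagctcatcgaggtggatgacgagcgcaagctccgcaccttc
Rpl26 at chr11:68903179-68903253 (plus strand) and the pseudogene Gm15772 at chr5:3236599-3236673 (plus strand) differ at 1 base.
Rpl26: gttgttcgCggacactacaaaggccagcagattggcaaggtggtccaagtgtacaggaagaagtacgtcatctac
Gm15772: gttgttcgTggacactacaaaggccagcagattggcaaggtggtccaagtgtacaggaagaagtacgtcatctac
Rpl3l at chr17:24728398-24728472 (plus strand) and its paralogue Rpl3 at chr15:80082427-80082501 (minus strand) differ at 14 bases in the most similar coding window.
Rpl3l: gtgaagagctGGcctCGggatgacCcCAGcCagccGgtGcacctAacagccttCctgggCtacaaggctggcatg
Rpl3: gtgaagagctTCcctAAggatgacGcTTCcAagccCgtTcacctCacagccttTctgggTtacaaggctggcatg

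The counts on these genes covered a wide range, and were lower on genes with more shared sequence, with exceptions given below. Genes whose coding windows were all shared had a median of 7.5 counts per heart, those with over 50% shared had 97.2, and those with 50% or less had 955. Across the 86 genes the percentage of coding windows shared and the counts per kb of mRNA gave a Spearman's rho of −0.597, given as a description because the genes are all from the same 6 libraries and gene families share copies. Rps6, whose protein is the classical substrate of S6 kinase, had 2, 4 and 5 counts in vehicle hearts and 4, 2 and 1 in caffeine hearts. Its pseudogene Rps6-ps4, which holds every coding window of Rps6, had 162, 150 and 125 counts in vehicle hearts and 118, 124 and 131 in caffeine hearts. Rpl24, a protein at the interface of the subunits, had at most 2 counts in any heart, while its pseudogene Gm12254 had between 284 and 354, and 71.5% of the Rpl24 mRNA lies under exons of Gm28037. These values do not show that Rps6 or Rpl24 was not transcribed, since reads from either gene can also match another gene.

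**Figure D1:**
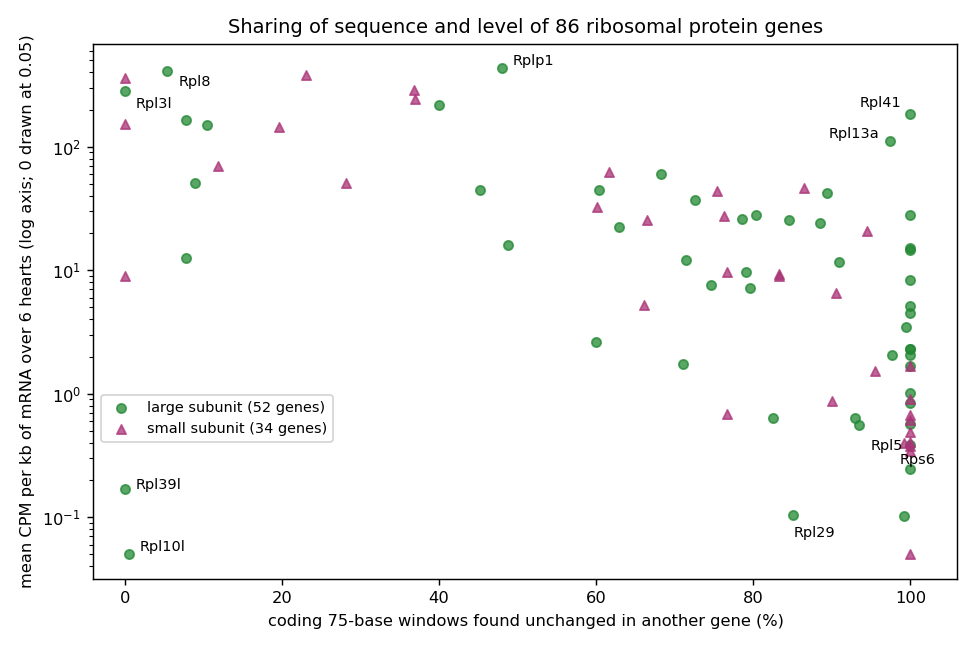
Percentage of the coding windows of 75 bases that were found unchanged in another gene (horizontal axis) against the mean level over the 6 hearts in CPM per kb of mRNA (vertical log axis) for 86 ribosomal protein genes. Genes above 100 CPM per kb are mostly on the left, the exceptions on the right being Rpl41 and Rpl13a, and genes below 1 CPM per kb are mostly at or near 100% shared. Rpl41 has only 4 coding windows. Of the Rpl13a mRNA 59.3% lies under exons of other annotated genes at the same place, among them Gm45713, which holds 97.4% of its coding windows.

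Per length, the highest level was that of Rplp1, an acidic protein of the stalk that recruits translation factors, with 431 CPM per kb as the mean over the 6 hearts. Rpl8 followed with 407, Rps15 with 377 and Rps9 with 287 CPM per kb. Rpl3l had 281 CPM per kb. In all 14 genes were above 100 and 22 were below 1 CPM per kb. Of the 22, Rpl39l and Rpl10l have little or no unchanged shared sequence, and both are known mainly from male germ cells. Rpl10l had no count in any heart, which allows at most 0.286 to 0.394 CPM, and Rpl39l had 0, 1 and 1 counts in vehicle hearts and 2, 2 and 1 in caffeine hearts. The Rps15a and Rps20 values are understated per length, because the annotated transcript chosen for them is long.

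Caffeine hearts were then compared with vehicle hearts. A filter on low counts left 13092 genes, among them 61 of the 86 ribosomal protein genes (40 large, 21 small). The other 25 had between 0 and 21 counts per heart, and 23 of these had over 50% of their coding windows shared. With edgeR's quasi-likelihood test, an adjusted p below 0.05 and a fold change above 1.5, 0 of the 61 were called higher and 0 were called lower in caffeine hearts, where the same thresholds called 0.0840% of all tested genes higher and 0.0229% lower. At an unadjusted p below 0.05 there was 1 higher and 1 lower of 61, against 4.42% and 4.40% of all tested genes. The exact test, the likelihood ratio test, DESeq2 and limma-voom also called 0 in either direction. Of all 13092 genes these tests called 61, 63, 39 and 11 higher and 33, 38, 28 and 3 lower. With so few genes called, 0 of 61 is near the background. All 3 caffeine hearts lay above all 3 vehicle hearts for 5 of the 61 (among them Rps26, Rplp2, Rpl18 and Rpl19) and below for 3 (among them Rpl34 and Rpl12), against 7.11% and 7.12% of all tested genes. The fitted log2 fold change was within 1.5-fold for 59 of the 61, the exceptions being Rps2 and Rpl34, and its standard error had a median of 0.15.

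**Figure D2:**
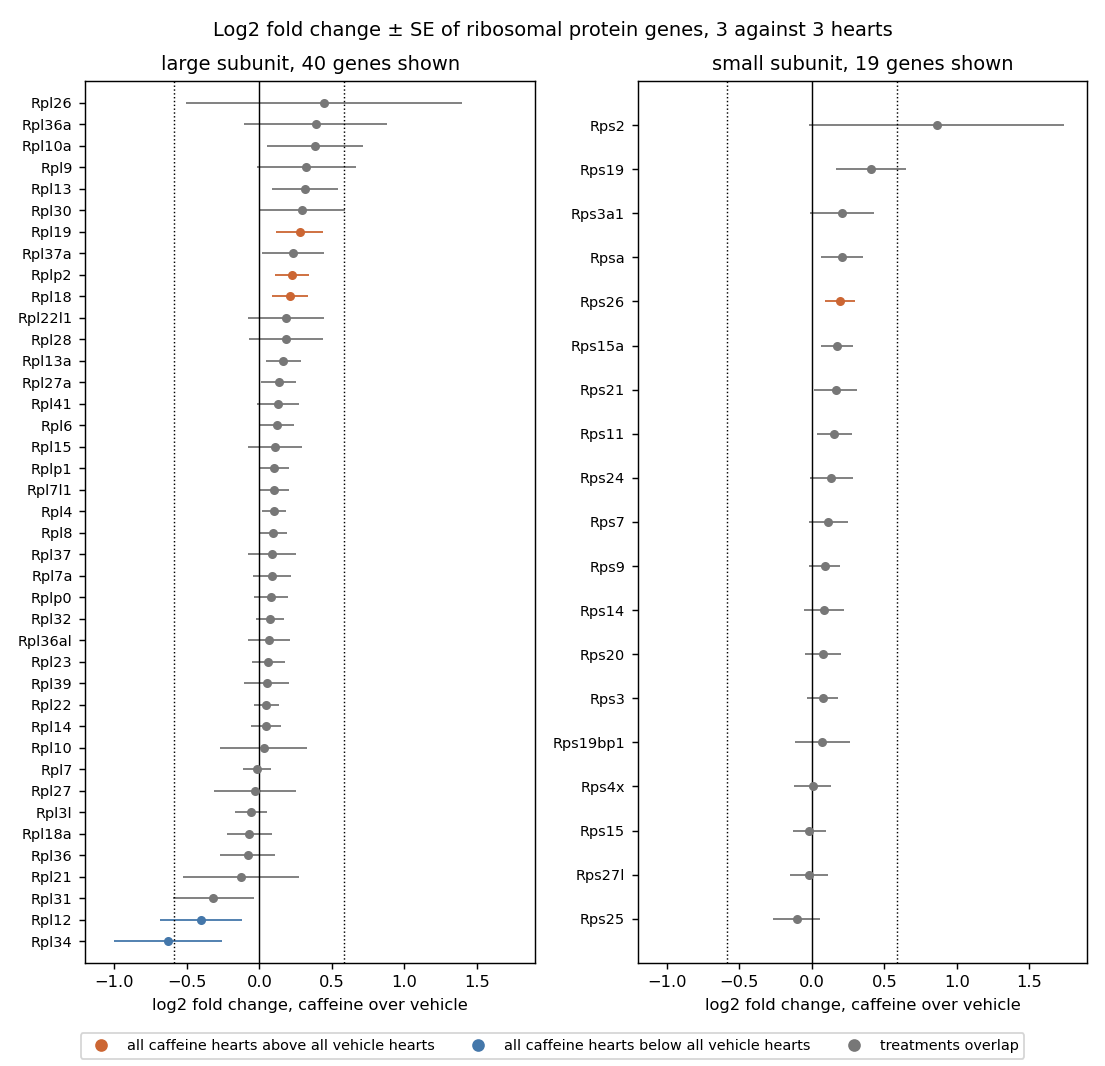
Fitted log2 fold change of caffeine over vehicle (horizontal axis, bars are ± 1 SE, 3 against 3 hearts) for 40 large subunit and 19 small subunit genes, with dotted lines at a fold change of 1.5. Orange and blue points are the 4 and 2 genes shown whose treatments did not overlap, and the bars of Rpl26 and Rps2 are the widest.

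Of the small subunit genes, Rps26, which contacts mRNA upstream of the start codon, was at 39.3, 40.8 and 38.0 CPM in vehicle hearts and at 50.1, 43.1 and 42.0 CPM in caffeine hearts. Its log2 fold change was 0.19 (SE 0.10, edgeR adjusted p = 0.634). Caffeine replicate 1 stood above all others, and the other caffeine hearts lay just above the vehicle hearts. Rps19, the gene most often mutated in Diamond-Blackfan anaemia, was at 6.15, 4.73 and 4.76 CPM against 7.42, 4.74 and 8.68 CPM, and the treatments overlapped. Rps15a had a log2 fold change of 0.17 (SE 0.11), with overlap. Rps3, a protein at the mRNA entry site with no shared window, was at 292, 273 and 280 CPM in vehicle hearts and 349, 268 and 273 CPM in caffeine hearts, a log2 fold change of 0.08 (SE 0.11). Rps15 and Rps9, the other abundant genes of the small subunit, had log2 fold changes of −0.02 (SE 0.11) and 0.09 (SE 0.11). Of the 13 genes listed for the 40S head, 6 were tested, 4 with a positive and 2 with a negative log2 fold change. Of 12 genes known from Diamond-Blackfan anaemia, an anaemia of impaired ribosome production, 6 were tested. Of these 0 were called, against 0.0840% of all tested genes called higher and 0.0229% lower. All 6 had a positive value, as had 48 of the 61 genes tested, but the largest of them, Rpl26, was at −0.03 once counts on its copies were added.

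In the large subunit the genes of the P stalk, which binds and activates elongation factors, were all tested. Rplp0, the base of the stalk, was at 321, 280 and 262 CPM in vehicle hearts and 345, 258 and 311 CPM in caffeine hearts, with overlap. Rplp1 was at 207, 201 and 215 CPM against 257, 205 and 206 CPM. Rplp2, its partner, was at 41.2, 36.2 and 40.9 CPM against 54.0, 42.7 and 42.0 CPM. For all 3 proteins caffeine replicate 1 was the highest heart, and for Rplp2 the other caffeine hearts lay above the vehicle hearts by a narrow margin. The log2 fold changes were 0.08 for Rplp0 (SE 0.12), 0.10 for Rplp1 (SE 0.10) and 0.23 for Rplp2 (SE 0.12, edgeR adjusted p = 0.635). Rpl12, at the foot of the stalk, was at 2.74, 2.37 and 2.03 CPM in vehicle hearts and 1.96, 1.81 and 1.64 CPM in caffeine hearts, a log2 fold change of −0.40 (SE 0.28). All coding windows of Rpl12 are shared, and its pseudogene Gm10275 had 1324 counts in all against 117 on Rpl12. With copies added, Rpl12 had a log2 fold change of 0.08 and the treatments overlapped.

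**Figure D3:**
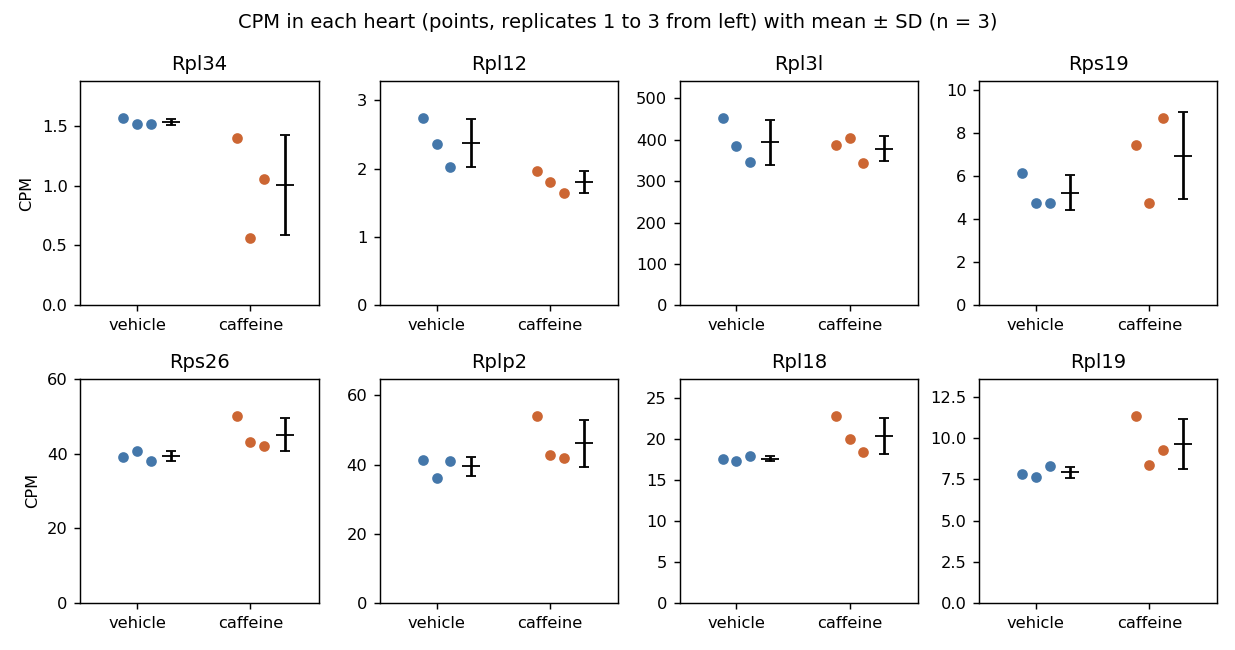
CPM in each of the 6 hearts (points, replicates 1 to 3 from left to right) and mean ± SD (n = 3) for 8 genes, with every vertical axis starting at 0. Rpl34 and Rpl12 were lower and Rps26, Rplp2, Rpl18 and Rpl19 higher in all caffeine hearts, Rpl3l and Rps19 overlapped, and caffeine replicate 1 is the highest point for the 4 genes that were higher.

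Rpl18 and Rpl19 were the other genes of the large subunit with all caffeine hearts higher. Rpl18 was at 17.6, 17.3 and 17.9 CPM in vehicle hearts and 22.8, 20.0 and 18.4 CPM in caffeine hearts, a log2 fold change of 0.21 (SE 0.12). Rpl19, which forms a bridge to the small subunit, was at 7.82, 7.66 and 8.31 CPM against 11.3, 8.35 and 9.26 CPM, a log2 fold change of 0.28 (SE 0.17). The gap between the treatments was a small part of the spread in caffeine hearts for both genes. Rpl34 was at 1.56, 1.51 and 1.52 CPM in vehicle hearts and 1.40, 0.564 and 1.06 CPM in caffeine hearts, which is 15 or 16 counts against 5 to 10. Its log2 fold change was −0.63 (SE 0.37, edgeR adjusted p = 0.677), and it was −0.33 without caffeine replicate 2. Rpl8, which lies near the peptidyl transferase centre, was at 352, 333 and 319 CPM in vehicle hearts and 403, 333 and 338 CPM in caffeine hearts, with overlap. Rpl31 and Rpl21 had log2 fold changes of −0.32 (SE 0.28) and −0.13 (SE 0.40), and Rpl10a and Rpl36a had 0.38 (SE 0.33) and 0.39 (SE 0.49), all with overlap and at 1 to 3 CPM on average. Of the 8 genes listed for the rim of the exit tunnel 5 were tested, 4 with a positive and 1 with a negative log2 fold change.

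Rpl5 and Rpl11, which carry 5S ribosomal RNA into the large subunit and can bind Mdm2, were below the filter. Rpl5 had 7, 10 and 13 counts in vehicle hearts and 4, 9 and 2 in caffeine hearts, and Rpl11 had 6, 9 and 6 against 12, 6 and 6. All coding windows of both are shared. The pseudogene Gm15500, which holds every coding window of Rpl5, had between 205 and 264 counts per heart, and Gm10288, a pseudogene of Rpl11, had between 71 and 97. With copies added, Rpl5 had a log2 fold change of 0.11 (SE 0.12) and Rpl11 of 0.20 (SE 0.16), both with overlap. In addition 46.6% of the Rpl5 mRNA lies under exons of Fam69a, and without strand reads of such a stretch cannot be told apart.

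The paralogues are genes related to another ribosomal protein gene, and whether their proteins replace each other in the ribosome was not measured. Rpl3l, a paralogue of Rpl3 that is expressed in heart and skeletal muscle, had the most counts of the 86 genes. Rpl3l (chromosome 17, 24727820 to 24736143, plus strand) was at 452, 385 and 346 CPM in vehicle hearts and at 388, 404 and 344 CPM in caffeine hearts. The treatments overlapped, with a log2 fold change of −0.06 (SE 0.11, edgeR adjusted p = 0.934). Rpl3l held between 8.38% and 11.0% of the counts on all 86 genes. Rpl3 itself had 3 to 11 counts per heart, but 93.4% of its coding windows are shared, and its pseudogene Rpl3-ps1 had 188 to 287. The sum of Rpl3 and its copies was at 28.6, 25.5 and 26.3 CPM in vehicle hearts and 26.7, 27.8 and 31.7 CPM in caffeine hearts. Per length this was 20.6 CPM per kb, against 281 CPM per kb for Rpl3l. The 2 values are not on an equal footing, because Rpl3l has no shared coding window. How reads with several matches were treated is not given, and any left uncounted would be missing from the sum for Rpl3 and its copies. The same limit holds for the rank of Rpl3l among the 86 genes and for its share of their counts. Rpl7l1, Rps27l and Rpl36al were at 32.8, 25.3 and 14.7 CPM over the 6 hearts, with log2 fold changes of 0.10 (SE 0.11), −0.02 (SE 0.13) and 0.06 (SE 0.15). Rpl22l1, the paralogue of Rpl22, was at 3.22 to 4.56 CPM in vehicle and 3.39 to 5.74 CPM in caffeine hearts. Rps27rt had no count, and all of its coding windows are shared.

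Of the 61 genes tested, 48 had a positive and 13 a negative log2 fold change, with a median of 0.10 (0.10 in the large and 0.11 in the small subunit) beside a median of 0.00 over all 13092 genes. Most of the shift came from a single heart. After each gene was centred on its mean over the 6 hearts, the median deviation of the 61 genes was 0.03, −0.09 and −0.08 on the log2 scale in vehicle hearts and 0.25, −0.06 and −0.02 in caffeine hearts. Caffeine replicate 1 was the highest of the 6 hearts for 38 of the 61 genes, and vehicle replicate 1 for 10. Without caffeine replicate 1 the median log2 fold change was 0.01, with 33 of 63 tested genes positive. It was 0.07 without vehicle replicate 2 or 3, 0.14 without vehicle replicate 1, 0.16 without caffeine replicate 2 and 0.13 without caffeine replicate 3. With scaling to library size alone the median was 0.01, but the median of all genes was then −0.08.

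**Figure D4:**
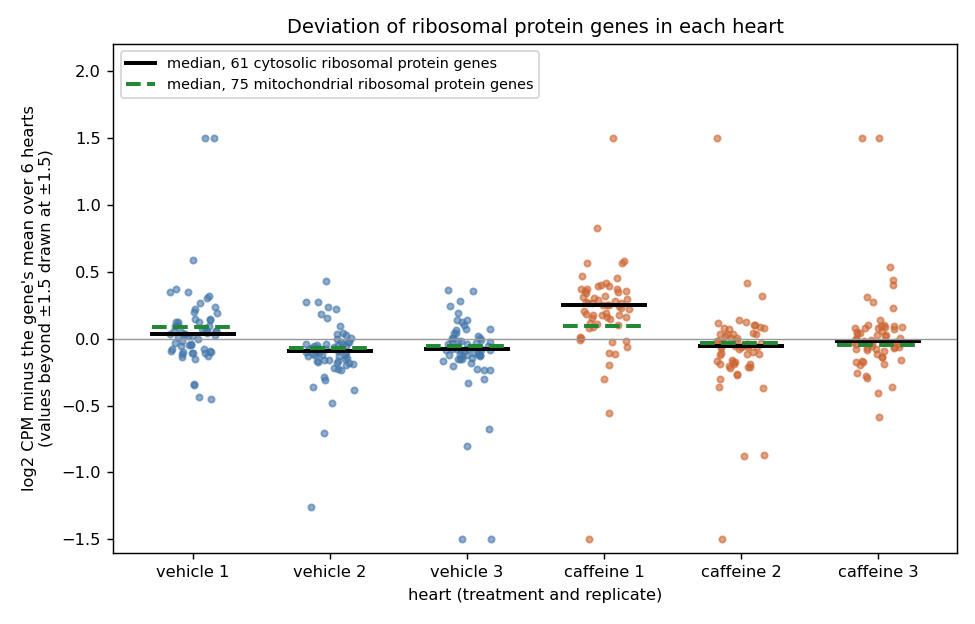
Log2 CPM of each of the 61 tested genes minus its mean over the 6 hearts (points, vertical axis), by heart. Black lines are the medians of these genes and green dashed lines those of 75 mitochondrial ribosomal protein genes, and the black line of caffeine replicate 1, at 0.25, stands above those of the other 5 hearts, which lie between −0.09 and 0.03.

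Caffeine replicate 1 also differed in other measures. It had the smallest total count and the largest share on the 10 most abundant genes, and its macrophage markers, at 403 CPM, and fibroblast markers, at 1147 CPM, were the highest of the 6 hearts. The part of these in the ribosomal protein values was not tested. The 75 tested mitochondrial ribosomal protein genes, whose products serve the separate ribosomes of mitochondria, had median deviations of 0.08, −0.07 and −0.05 in vehicle hearts and 0.10, −0.03 and −0.05 in caffeine hearts. There vehicle replicate 1 and caffeine replicate 1 lay together above the other 4 hearts. The share of all counts on the 86 genes was 0.403%, 0.383% and 0.397% in vehicle hearts and 0.434%, 0.366% and 0.387% in caffeine hearts. The highest and the lowest shares were both from caffeine hearts.

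For several genes the proportion of counts on the gene and on a pseudogene differed from heart to heart, which was noticed after the values had been seen. Whether reads of the same mRNA were divided between them was not tested. Rpl26, a protein at the exit tunnel that is also known to bind p53 mRNA, had 142, 22 and 3 counts in vehicle hearts and 1, 93 and 94 in caffeine hearts. Its pseudogene Gm15772, printed above, had 151, 239 and 270 counts in vehicle hearts and 208, 117 and 120 in caffeine hearts. Gm15772 was highest where Rpl26 was lowest when set against the depth of each heart. With its 4 annotated copies added Rpl26 was at 29.6, 24.7 and 27.7 CPM in vehicle hearts and 29.5, 24.8 and 25.9 CPM in caffeine hearts. The coefficient of variation over the 6 hearts was 97.3% for Rpl26 alone and 8.24% with its copies. The log2 fold change was 0.45 (SE 0.95) alone and −0.03 (SE 0.12) with copies.

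Rps3a1 and a pseudogene differed in this way in a single heart. It had 547, 451 and 236 counts in vehicle hearts and 356, 395 and 380 in caffeine hearts. The pseudogene Rps3a3 had 326 counts in vehicle replicate 3 and 0 in each of the other 5 hearts. With copies Rps3a1 was at 53.9, 43.2 and 57.0 CPM in vehicle hearts and 50.0, 44.7 and 44.7 CPM in caffeine hearts. Rps2, a protein near the mRNA entry channel, had 504, 64 and 25 counts in vehicle hearts and 398, 45 and 387 in caffeine hearts. Its pseudogene Rps2-ps13 had 517, 942 and 443 counts in vehicle hearts and 398, 657 and 431 in caffeine hearts. The hearts thus fell into 3 with high and 3 with low Rps2, and each treatment held both kinds. The log2 fold change of Rps2 was 0.86 (SE 0.88, edgeR adjusted p = 0.843) alone and 0.24 (SE 0.23) with its 21 copies. With copies vehicle replicate 3, at 48.0 CPM, was still well below the other hearts, which were between 80.3 and 112 CPM.

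**Figure D5:**
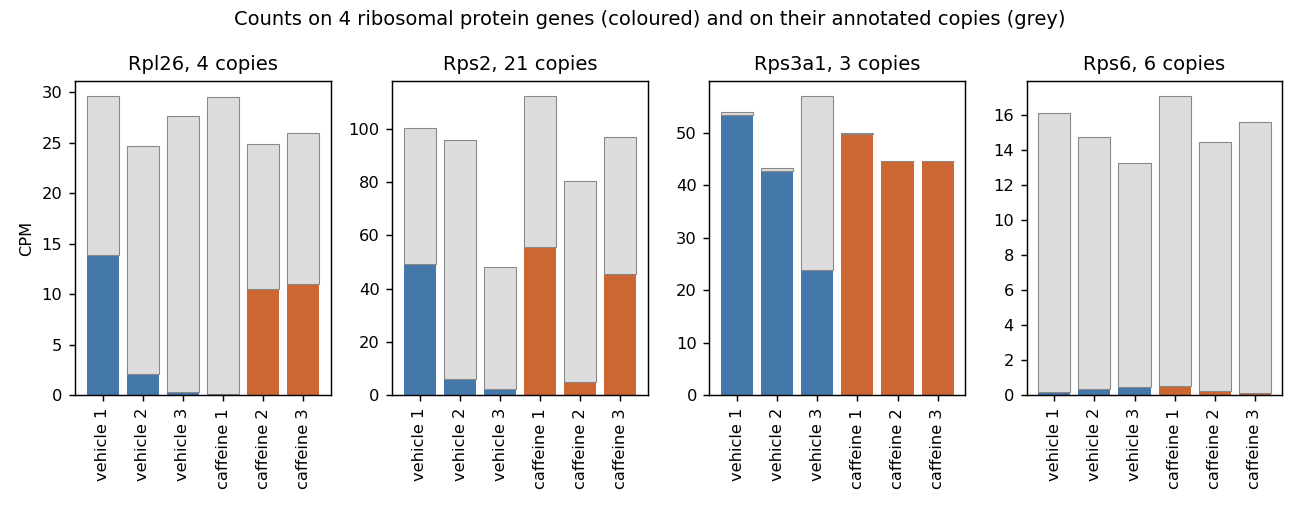
CPM of 4 ribosomal protein genes (blue in vehicle, orange in caffeine hearts) with the summed CPM of their annotated copies stacked in grey, by heart. The coloured part of Rpl26 and Rps2 changes from heart to heart, that of Rps3a1 is smaller in vehicle replicate 3, and that of Rps6 is near 0 in all 6 hearts.

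A highest heart at least 10 times the lowest was uncommon. Among genes with a mean count of at least 20 it was found in 2 of 55 ribosomal protein genes (Rpl26 and Rps2), in 3 of 56 of their copies and in 0.397% of all genes of that abundance. Annotated copies, genes that hold at least 50% of the coding windows of a ribosomal protein gene with up to 2 mismatches, numbered 345 for 69 of the 86 genes. Of these 332 are annotated as pseudogenes and 215 had a count. Copies held 32.4% of the counts on ribosomal protein genes and copies together, and for 32 genes they held more counts than the gene. With copies added 75 of the 86 genes passed the filter, 14 more than alone, and 0 were called in either direction. That fit called 11 of all 13048 genes higher and 3 lower, so that 0 of 75 is near the background. Of the 75, 62 had a positive and 13 a negative log2 fold change, with a median of 0.10. All 3 caffeine hearts were then higher for 4 genes, among them Rplp2, Rpl18 and Rps16, and lower for 1, against 7.10% and 7.13% of the 13048 genes tested in that fit. Rpl12, Rpl34, Rps26 and Rpl19, which did not overlap alone, overlapped with copies. The number of the 61 genes with a coefficient of variation above 25% was 11 alone and 5 with copies.

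Ribosomal protein genes under other names were tested too. Fau, which encodes a ubiquitin-like protein fused to the small subunit protein S30, had a log2 fold change of −0.13 (SE 0.18). Rack1, a scaffold protein on the 40S head, was at 427, 384 and 382 CPM in vehicle hearts and 487, 384 and 424 CPM in caffeine hearts, a log2 fold change of 0.12 (SE 0.10). Both overlapped.

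Genes that act with the ribosome were not called in any list either, where 0.0840% of all tested genes were called higher and 0.0229% lower. Of 8 elongation factor genes tested 5 had a positive and 3 a negative log2 fold change. Eef1a1, which delivers aminoacyl-tRNA and whose mRNA has a 5′ terminal oligopyrimidine tract, was at 269, 254 and 265 CPM in vehicle hearts and 350, 269 and 289 CPM in caffeine hearts, a log2 fold change of 0.20 (SE 0.10, edgeR adjusted p = 0.619). Its muscle form Eef1a2 had −0.03 (SE 0.10) and Eef2, the translocation factor, −0.11 (SE 0.09). Of 22 other mRNAs with such a tract 11 had a positive and 11 a negative value. Of 48 genes of ribosome biogenesis 3 were higher at an unadjusted p below 0.05 (Rrp12, Bop1 and Taf1d) and 1 was lower (Polr1a), against 4.42% and 4.40% of all tested genes, so that these counts are near the background. Polr1a, the catalytic subunit of RNA polymerase I, was at 49.0, 44.2 and 48.5 CPM in vehicle hearts and 36.8, 43.3 and 33.8 CPM in caffeine hearts, a log2 fold change of −0.31 (SE 0.11, edgeR adjusted p = 0.413). Of 18 genes of mTOR signalling and control of these mRNAs 1 was higher and 1 lower at an unadjusted p below 0.05, which is also near the background. Eif4e had a log2 fold change of 0.23 (SE 0.10) and Eif4ebp2, which encodes an inhibitor of its product, of −0.27 (SE 0.10), with edgeR adjusted p = 0.542 and 0.469. Larp1, which binds the tract, had 0.01 (SE 0.08). Of 75 mitochondrial ribosomal protein genes tested 0 were called, which is near the background, with a median log2 fold change of 0.04.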

How the data were processed

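The authors prepared poly(A) RNA libraries with a kit that does not mark strand, sequenced single-end reads of 75 bases, and used FastQC for read quality, TopHat2 for mapping to mm10 (GRCm38) and HTSeq for counting over Ensembl genes. The treatment of reads with several matches is not given in the sources used here. The deposited values are these raw counts, not normalized, for 43629 genes per heart, with totals from 7613011 to 10483101, which limit what can be shown to about 0.3 CPM in counting error alone. Groups and replicate numbers came from the sample titles.

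Counts were filtered with filterByExpr (minimum count 10, minimum total 15), normalized by TMM and fitted with edgeR's quasi-likelihood test over 13092 genes, with treatment as the only term and Benjamini-Hochberg adjustment. The standard error (SE) is the size of the log2 fold change over the root of its F value. Log2 CPM for deviations used a prior count of 2. With 20 labelings of 6 hearts an exact permutation test gives no p below 0.1, so none is printed. The fits were tested on simulated data. Positions, mRNA lengths and sequences were from GENCODE M21 (GRCm38), and 1167 identifiers had no symbol. Windows of 75 bases were compared with all annotated transcripts on either strand, without mismatch or with up to 2. A copy is a gene other than the 86, with an exonic length of at most 2 times the mRNA.

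The members and gene lists were chosen with earlier results of these data known. Genes named are the 10 with the smallest p, the 5 with the largest rise, the 5 with the largest fall, the 5 with the most counts per length, the P stalk, 5S RNA-binding and paralogue lists, and Fau and Rack1, of which some are not reported here. Rps3, Rps6, Rpl3, Rpl24, Rps3a1, Rps16, Rpl41, Rpl13a, Rps20, Rps19bp1, the copies and the genes of the last paragraph were named after their values were seen. Alternatives were other tests, scalings and filters, the replicate number as a block, each heart left out, and pseudogene counts added. Adding all copies, and counting overlap with a heart left out, were chosen after seeing the data. Fits used edgeR 4.0.16 in R 4.3.3, with limma 3.58.1 and DESeq2 1.42.0 for alternatives, and windows were compared in Python 3.11.15.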

Additional observations from a re-analysis of the deposited data

How the results depend on the processing

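In 18 of 19 alternatives 0 of the ribosomal protein genes were called in either direction. With no filter on low counts 1 was called higher, Rps2 (log2 fold change 0.83, edgeR adjusted p = 3.6e-07), where 145 and 95 of all genes were called. The treatments overlapped for Rps2, and in the main fit, which called 11 and 3 of all genes, its edgeR adjusted p was 0.843. The number of ribosomal protein genes with all caffeine hearts higher was 5 of 61, against 7.11% of all tested genes, and 0 with scaling to library size only. That scaling also moved the median log2 fold change of all genes below 0, and the share of all genes is not given for it. The 0 is therefore not read as a result about these genes. With a heart left out the number higher was between 6 and 15 (15 without vehicle replicate 1, 12 without caffeine replicate 2, 9 without vehicle replicate 3, 8 without caffeine replicate 3), and the number lower was between 3 and 7 (7 without caffeine replicate 1). With fewer hearts a gap is more easily met, and 10.8% to 13.4% of all genes then had one in each direction. Without vehicle replicate 1, 24.6% of the ribosomal protein genes were higher, against 12.5% of all genes. Without caffeine replicate 2 the shares were 19.7% and 13.4%. They were 9.84% and 12.1% without caffeine replicate 1, and 9.84% and 11.2% without vehicle replicate 2. The share of ribosomal protein genes that were lower was between 4.92% and 11.5%. The difference in the share of counts, caffeine minus vehicle, was 0.00116 percentage points, between −0.0181 and 0.0160 with a heart left out, and 0.0365 without the 10 most abundant genes in the denominator. The replicate block called 0 higher and 0 lower, with a median log2 fold change of 0.096 (29 and 11 of all genes were called). Hearts of the same number did not deviate together across all genes (r = 0.045, −0.030 and −0.038). With so few pairs these values cannot show whether hearts of the same number share a litter or batch, which the labels do not give. The block changed no call of a ribosomal protein gene.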

Other observations

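The pseudogenes Gm8420 and Gm11942 were the other copies, beside Rps3a3, whose highest heart was at least 10 times the lowest. Gm8420, a copy of Rpl15, had 88, 8 and 1 counts in vehicle hearts and 58, 8 and 62 in caffeine hearts. Its 3 high hearts were those with high Rps2, and Rpl30 was also highest in them, at 30.1, 14.3 and 12.5 CPM in vehicle hearts and 27.7, 17.3 and 24.9 CPM in caffeine hearts. Rpl30 has few counts on copies, and its coefficient of variation was 35.1% alone and 35.0% with them. Gm11942, a copy of Rplp1, had 173, 21 and 4 counts in vehicle hearts and 60, 69 and 7 in caffeine hearts, while Rplp1 itself varied by 9.82%. The cause of these differences between hearts was not tested.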
